A study of Danio rerio with 6 samples.

Results

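The transcripts described here carried no gene name in the assembled transcript tables, lay at a locus that also held at least 1 named transcript, and appeared in zrsr2 mutant embryos while being absent or nearly absent in WT embryos. A transcript was taken when its FPKM (a level corrected for transcript length and for the depth of the pool) was at most 0.1 in each of 3 WT pools and at least 0.3 in each of 3 mutant pools. This chose 115 transcripts, at 100 host loci, of 11723 unnamed transcripts at 6185 loci with a named transcript. The tables list 77316 transcripts in all, 59810 named and 17506 unnamed. The gained transcripts were thus chosen by their FPKM in these same 6 pools, and these levels are given as a description, with no test.

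Most introns of vertebrate genes are removed by the major spliceosome, whereas a small class, the minor or U12-type introns, is removed by the minor spliceosome. Zrsr2 is a zinc finger protein of the minor spliceosome that acts in recognition of the 3′ splice site of these introns. An intron that is not removed leaves a transcript with 1 exon fewer and with the intron's bases added to its length, while use of another splice site changes the length at the same number of exons. Those features, exon number, length and ends, can be read from a transcript table without the sequence.

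RNA-Seq was performed on total RNA from zebrafish bodies (strain Tab5) at 3 days post fertilization after removal of the heads, in pools of 10 embryos. The 3 WT pools came from clutches 12, 13 and 15, and the 3 mutant pools, homozygous for the hg129 deletion allele and labelled zrsr2hg129/h129, from clutches 3, 4 and 7. WT embryos came from crosses of WT siblings and mutants from crosses of heterozygotes, so cross and clutch cannot be told apart from genotype, nor can RNA integrity, which per the study's methods was higher in every WT pool than in every mutant pool. All mutants descend from 1 allele.

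Bases covered by transcripts came to 7.50 to 9.26 gigabases in WT pools and 8.85 to 9.17 gigabases in mutant pools, of which unnamed transcripts took 23.0% to 26.1% and 26.0% to 29.2%. The longest zrsr2 transcript was lower in all mutant pools (0.388, 0.669 and 0.960 FPKM in clutches 3, 4 and 7) than in all WT pools (1.14, 1.26 and 1.24 FPKM in clutches 12, 13 and 15). Summed markers of skeletal muscle were 22709 to 26432 FPKM in WT and 27551 to 30180 FPKM in mutant pools, with 2 of 6 genes above all WT pools. Exocrine pancreas markers were 705 to 986 and 20.9 to 62.5 FPKM, with 11 of 11 genes below, and liver markers 8877 to 10521 and 4743 to 7907 FPKM, with 3 of 5 below. Erythroid markers overlapped in all 5 genes (2776 to 4930 and 1999 to 3787 FPKM). Over all loci tested, all mutant pools lay below all WT pools in 16.9% and above in 15.9%, on FPKM scaled between pools. Photoreceptor and lens markers of the removed head summed to under 1 FPKM in every pool, with opn1sw1 at 0 throughout. Fewer cells of a type and less RNA per cell cannot be told apart in such pools, and the part of cell composition in the results below was not tested except where a value is given.

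The reverse rule, with the genotypes exchanged, found 52 lost transcripts at 46 loci. The 2 directions started from like numbers of candidates. In all 3 WT pools 1154 unnamed transcripts were at or below 0.1 FPKM, and 9.97% of them were gained, against 1085 in all 3 mutant pools, of which 4.79% were lost. Gained transcripts made up 2.0% of the 5758 that reached 0.3 FPKM in all mutant pools, and lost ones 0.879% of the 5915 that reached it in all WT pools. Only the trit1 locus held both kinds, which is 1.0% of the gained and 2.17% of the lost loci.

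The gained count stayed above the lost count at each limit tried. With absence taken as a listed 0 the counts were 65 and 31, and with presence taken as at least 1 FPKM they were 55 and 13. Dropping a pool can only add transcripts. Without WT clutch 12 the counts were 176 and 96, and without mutant clutch 3 they were 185 and 117. They came nearest to each other without WT clutch 15, at 158 and 132. WT clutch 15 had the fewest covered bases of the pools (7.50 gigabases) and the lowest share of them in unnamed transcripts (23.0%). The part of depth in the counts was not tested.

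**Figure D1:**
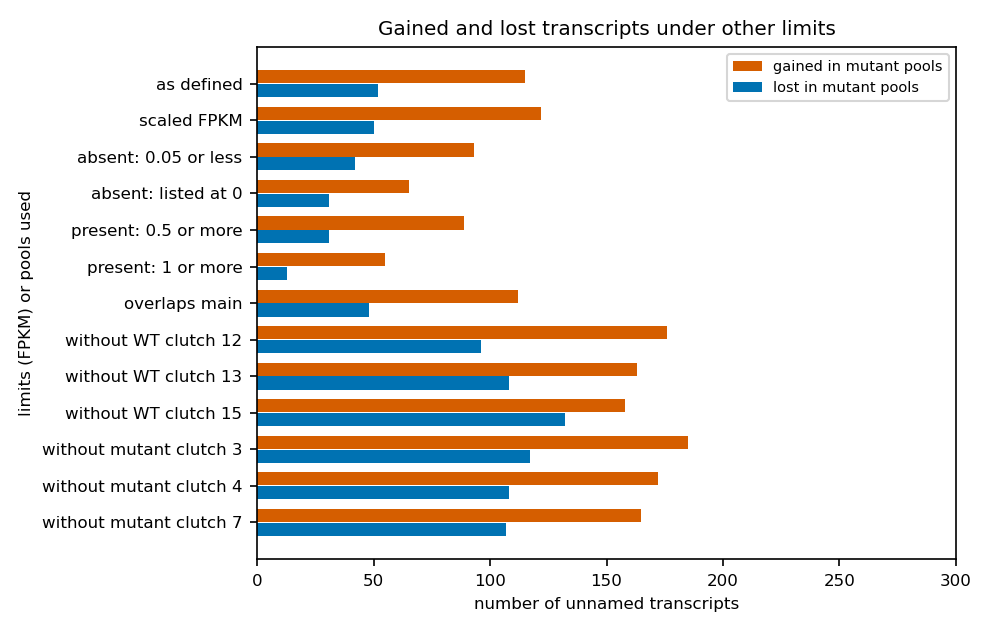
Number of unnamed transcripts gained (orange) or lost (blue) in mutant pools (x axis) under the limits as defined, under other limits in FPKM, on scaled FPKM, with overlap of the main named transcript required, and with each pool left out (y axis). The pair of bars at the defined limits stands at 115 and 52, and the orange bar is the longer one in each pair.

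Near the lower limit, the 3 gained transcripts just inside belonged to llgl2 (lowest mutant pool 0.307 FPKM), lztr1 (0.311 FPKM) and tmod2 (0.312 FPKM). The 3 just outside belonged to cpn1 (0.290 FPKM), dcdc2b (0.272 FPKM) and mapk11 (0.260 FPKM). Between 0.3 and 0.4 FPKM in their lowest mutant pool lay 13 gained transcripts, and 13 transcripts missed the limit at 0.2 to 0.3 FPKM.

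Levels of the gained transcripts were mostly low. Their mean over mutant pools ran from 0.444 to 46.9 FPKM with a median of 1.93 FPKM, and it reached 1 FPKM in 96, 3 FPKM in 30 and 5 FPKM in 11 of the 115. Their median was 1.76 FPKM in mutant clutch 3, 1.84 in clutch 4 and 2.02 in clutch 7. The rule required each transcript to reach 0.3 FPKM in each of these pools. Of the 115, 65 were listed at 0 in all WT pools. Single transcripts varied more between mutant pools than the medians did. The highest mutant pool exceeded the lowest by a median of 2.28 times, by over 3 times in 41 transcripts and by up to 14.2 times.

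The host loci lay on all 25 chromosomes, with 9 on chromosome 3 and 7 each on chromosomes 5 and 7. A single gained transcript was found at 86 loci and a pair at 13, while znf207b, which encodes a zinc finger protein, held 3. Of the 115, 112 overlapped the main named transcript (the named transcript of the locus with the highest mean WT FPKM) on its strand. Loci with several gene names held 19 of them.

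All gained transcripts had more than 1 exon. The median was 11 exons and 2801 bases, against 11 exons and 3183 bases over all 11723 unnamed transcripts at named loci. Both ends lay within the span of the main named transcript in 63 (54.8%), against 13 (25.0%) of the lost transcripts and 29.1% of all unnamed ones. Both ends were identical to those of the main named transcript in 16 (13.9%), against 2 lost transcripts and 5.27% of all. Against the main named transcript 78 were longer and 36 shorter, with a median difference of 214 bases and a range from -6241 to 5835 bases.

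The exon numbers leaned towards fewer exons. The gained transcripts had fewer exons than the main named transcript in 46 cases (40.0%), the same number in 42 (36.5%) and more in 27 (23.5%). Over all unnamed transcripts these shares were 23.9%, 26.8% and 49.3%. Exactly 1 exon fewer together with a greater length than the main named transcript was seen in 20 gained transcripts (17.4%), in 2 lost ones (3.85%) and in 4.23% of all unnamed ones.

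A stricter pairing asked for exactly 1 exon fewer than any named transcript of the locus, at least 30 bases more inside and ends that together differed by at most 100 bases. This held for 15 gained transcripts (13.0%), no lost transcript and 191 unnamed transcripts in all (1.63%). The added length had a median of 1112 bases in the 15 and of 190 bases in the 191. With identical ends the count was 5 gained transcripts, no lost one and 48 in all (0.409%).

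Another group kept the exon number. With ends within 100 bases, 31 gained transcripts (27.0%) had the same number of exons as a named transcript, against 6 lost ones (11.5%) and 13.6% of all. The inside difference was 1 to 100 bases in 17 of the 31, of which 9 were longer and 8 shorter. That share, 14.8% of the gained transcripts, lay nearer to the 10.5% of all unnamed transcripts. Of the 17, 11 differed by a multiple of 3, as did 731 of the 1227 unnamed transcripts in this class. The difference was over 100 bases in 14 (12.2%), of which 11 were longer, against no lost transcript and 2.45% of all.

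**Figure D2:**
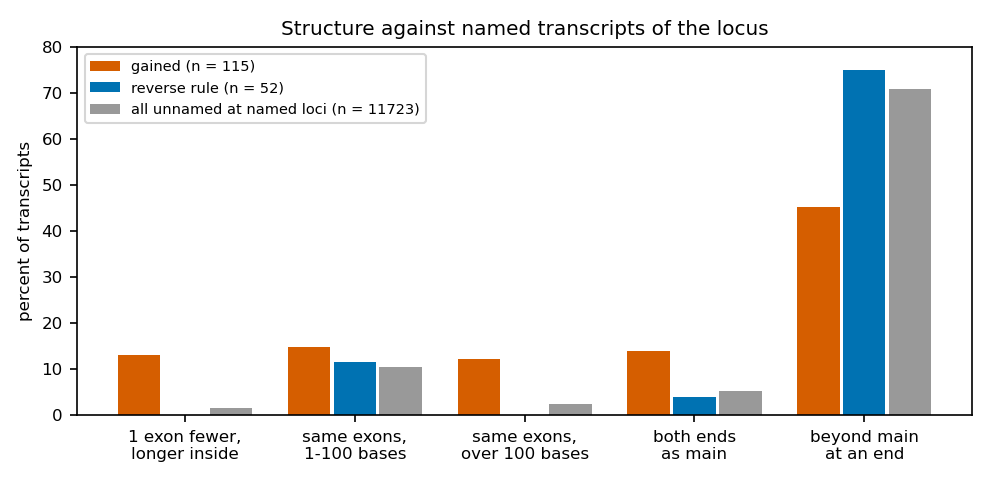
Percent of transcripts (y axis) in 5 structural classes, for the 115 gained transcripts (orange), the 52 found by the reverse rule (blue) and all 11723 unnamed transcripts at named loci (grey). Transcripts with 1 exon fewer and longer inside (13.0%) and those with the same exon number and over 100 bases of difference (12.2%) hold gained transcripts and none of the lost, and reaching beyond the main named transcript at an end is a class where gained transcripts (45.2%) lie below both others. Classes may share transcripts.

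Inserted lengths were set beside the intron sizes in the study's own list of differentially retained introns. That list was drawn up on these same 6 samples, so it is no independent evidence. Hosts on the list numbered 57 of 100, 47 of them with a U12-type intron, against 0 of 46 loci of the lost transcripts and 176 (2.85%) of the 6185 loci. For 17 gained transcripts the inserted length equalled the size of a listed intron of the host to the base, of the U12-type in 15. The same was true of 41 among all 11723 and of no lost transcript. A match was possible only at a host on the list, so its absence among lost transcripts was fixed in advance. Among transcripts with such a host, the counts were 17 of 69 gained ones and 41 of 384 unnamed ones in all. Only the size was compared, since exon coordinates were not used here.

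The 17 matched inserts ran from 92 bases in usp10 to 5835 bases in ssu72 with a median of 771 bases, and 13 of them were not a multiple of 3. That share was not counted for other introns, so nothing is read from it. At these loci the gained form took a median of 46.7% of the locus (16.3% to 83.2%) in mutant pools. As a share of itself and the spliced named form, it was at most 3.32% in any WT pool, while its mutant pools ranged from 9.80% to 100%. The rule limited the gained form in WT pools and required it in mutant pools. This contrast of shares therefore largely follows from the rule and is given as a description. This share exceeded 50% by its median over mutant pools in 11 of the 17. In mean level the spliced named form was lower in mutant than in WT pools in 14 of the 17. The gained and spliced forms share reads, so nothing is read from this count.

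**Figure D3:**
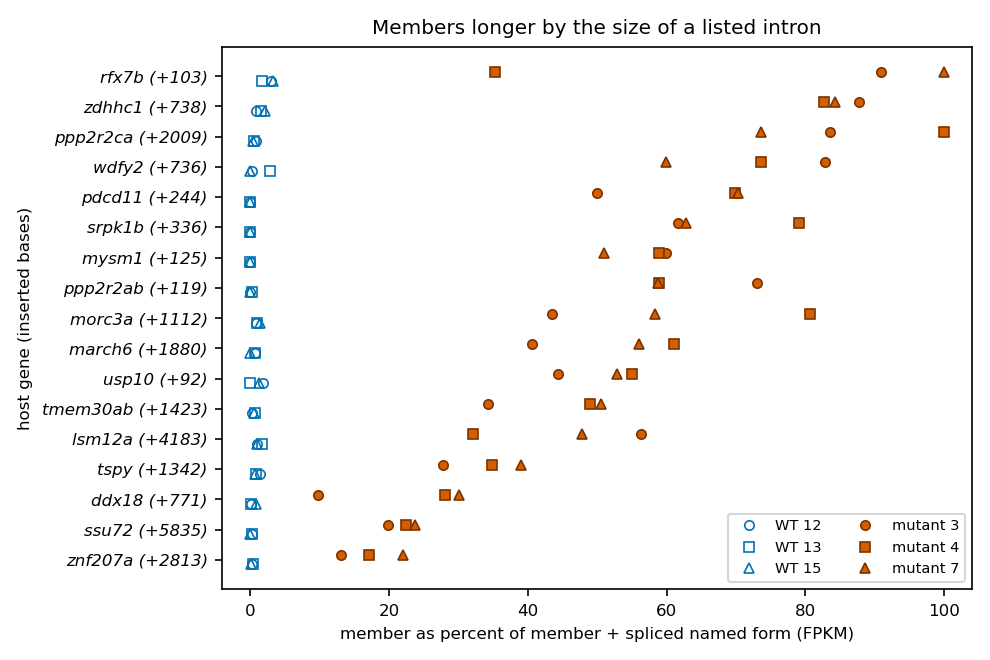
FPKM of the gained transcript as a percent of the gained transcript and its spliced named form together (x axis) for the 17 loci where the inserted length (in parentheses, bases) equals a listed intron (y axis). Open blue symbols are the 3 WT pools, all at 3.32% or below, and filled orange symbols the 3 mutant pools, which are listed at 9.80% or above. The distance between the genotypes largely follows from the rule that chose the gained transcripts.

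The 5 pairs with identical ends allow the 2 forms to be read side by side. For ppp2r2ca (chromosome 14, 52522717 to 52552978, minus strand, GRCz11), a regulatory B subunit of protein phosphatase 2A, the gained form had 8 exons and 6418 bases against 9 exons and 4409 bases, a difference of 2009 bases. It was at 0.0145, 0.0104 and 0.00678 FPKM in WT clutches 12, 13 and 15 and at 4.04, 5.61 and 4.85 FPKM in mutant clutches 3, 4 and 7. The spliced form was at 1.77, 1.97 and 1.45 FPKM in WT and at 0.796, 0 and 1.73 FPKM in mutant pools. Every mutant pool thus held more of the longer form than of the shorter one, while the spliced form overlapped between genotypes.

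For ssu72 (chromosome 22, 359273 to 367610, minus strand), a phosphatase of the RNA polymerase II tail, the gained form was 5835 bases longer, at 4 exons against 5. Its level was 0.0654, 0.0416 and 0 FPKM in WT and 3.08, 3.41 and 3.12 FPKM in mutant pools. The spliced form was at 22.4, 21.6 and 23.6 FPKM in WT and at 12.4, 11.8 and 10.0 FPKM in mutant pools, with no overlap. Here the spliced form remained the larger of the 2 in every mutant pool.

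For lsm12a (chromosome 3, 22984098 to 22994433, plus strand), a member of the Lsm family, the insert was 4183 bases, and the gained form reached 2.21, 1.51 and 2.18 FPKM in mutant pools from 0.0414, 0.0762 and 0.0554 FPKM. Its spliced form was at 4.44, 4.45 and 5.76 FPKM in WT and at 1.71, 3.2 and 2.38 FPKM in mutant pools, so the groups did not overlap. In usp10 (chromosome 7, 69142757 to 69185124, minus strand), a ubiquitin-specific protease, the insert was 92 bases and the gained form went from 0.0969, 0 and 0.0846 FPKM to 2.01, 2.07 and 1.78 FPKM. Its spliced form was at 5.17, 3.76 and 6.26 FPKM in WT and at 2.52, 1.69 and 1.58 FPKM in mutant pools. Both loci showed the spliced form below its WT range in every mutant pool.

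In mysm1 (chromosome 20, 9096196 to 9123296, minus strand), which encodes a histone H2A deubiquitinase, the insert was 125 bases. The gained form was listed at 0 in all WT pools and was at 2.33, 2.30 and 1.45 FPKM in mutant pools. Its spliced form, at 1.35, 1.58 and 1.5 FPKM in WT and 1.55, 1.60 and 1.40 FPKM in mutant pools, overlapped. At this locus the gained form was added to a spliced form whose mean moved from 1.47 ± 0.11 to 1.52 ± 0.11 FPKM (SD, n = 3 pools each).

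Among the other 12 size matches, those with the largest share of their pair were rfx7b, zdhhc1 and wdfy2. zdhhc1, which encodes a palmitoyltransferase (chromosome 7, 35191230 to 35212947, plus strand), had an insert of 738 bases, with 0.00863, 0.0175 and 0.0229 FPKM in WT and 3.63, 3.31 and 3.60 FPKM in mutant pools. Its spliced form moved from 1.0, 1.1 and 1.04 FPKM to 0.505, 0.691 and 0.676 FPKM, without overlap. In rfx7b, a transcription factor gene, the insert was 103 bases and the share of the pair varied widely, at 90.9%, 35.2% and 100% in mutant clutches 3, 4 and 7. The list also held 2 U2-type matches, wdfy2 (736 bases) and pdcd11 (244 bases).

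The remaining matches by inserted length were ppp2r2ab (119 bases), srpk1b (336 bases), morc3a (1112 bases), tmem30ab (1423 bases), march6 (1880 bases), znf207a (2813 bases), ddx18 (771 bases) and tspy (1342 bases). They include an SR protein kinase (srpk1b), a chromatin-bound ATPase (morc3a), a flippase subunit (tmem30ab), an endoplasmic reticulum ubiquitin ligase (march6) and a DEAD-box helicase (ddx18). In srpk1b the ends of the 2 forms differed by 1413 bases together, in ddx18 by 557, in wdfy2 by 439 and in rfx7b by 228, so these 4 pairs rest on less alike forms.

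The 12 gained transcripts with the highest mutant mean were headed by mybpc2b, the gene of fast skeletal muscle myosin-binding protein C. The transcript (chromosome 24, 38259456 to 38348805, plus strand, 29 exons, 4035 bases) was listed at 0, 0.00118 and 0 FPKM in WT and was at 46.6, 52 and 42.1 FPKM in mutant pools. It took 84.0%, 84.7% and 67.3% of its locus. Another unnamed form of 29 exons, 77 bases longer, was at 26.4, 46.4 and 0.130 FPKM in WT and listed at 0 in all mutant pools. WT clutch 15, which held 0.130 FPKM of that form, held 17.7 FPKM of a form of 27 exons, listed at 0 in the other 5 pools. The locus as a whole had a log2 fold change of 0.73 ± 0.18 (SE, adjusted p = 0.0590, limma), so the forms moved far more than their sum. The summed muscle markers were also higher in mutant pools. Above all WT pools were 2 of 6 genes, against 15.9% of all loci on FPKM scaled between pools. The part of muscle in this was not tested.

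A change between forms of the same exon number was also seen at fat1a, which encodes a giant protocadherin. Its main named transcript of 27 exons and 16584 bases was at 4.17, 4.5 and 4.61 FPKM in WT and listed at 0 in all mutant pools. The gained transcript (chromosome 1, 17374885 to 17525131, plus strand), with 27 exons and 15 bases more in all, was listed at 0 in all WT pools and was at 2.66, 3.74 and 1.78 FPKM in mutant pools. Their starts lay 2037 bases apart on the genome. How much of this distance is exon cannot be told without exon coordinates, so no inside difference is given. Neither form was shared by the genotypes, which for the gained one follows from the rule. The whole locus had a log2 fold change of 0.20 ± 0.12 (SE, adjusted p = 0.358, limma). Of the 115 gained transcripts, 35 lay within 100 bases, in ends and length together, of another transcript of the locus with the same exon number, and 10 lay within 10 bases. Reads on shared exons are divided between such forms by the estimation, so their levels depend on that division. Of the other 80, 46 had a host on the study's intron list.

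At myh9b, the gene of a non-muscle myosin heavy chain, the gained transcript (chromosome 3, 5127785 to 5228841, minus strand, 35 exons, 6008 bases) was listed at 0 in WT and was at 21.4, 15.7 and 14.8 FPKM in mutant pools. The main named transcript, also of 35 exons but 9604 bases, was at 17.5, 11.9 and 17.8 FPKM in WT and at 3.26, 5.86 and 5.68 FPKM in mutant pools. The shorter form took 85.6%, 69.9% and 69.6% of the locus in mutant pools. The groups did not overlap for the main named transcript, and for the gained one this follows from the rule. The change of the main named transcript missed the threshold (log2 fold change -1.54 ± 0.26, SE, adjusted p = 0.0644, limma).

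At tcp1, which encodes a subunit of the chaperonin CCT, the gained transcript (chromosome 23, 2421689 to 2443881, plus strand) had both ends and the exon number (12) of the main named transcript and 385 bases more. It was at 0.0372, 0.0615 and 0.0521 FPKM in WT and at 8.34, 19.0 and 18.6 FPKM in mutant pools. The main named form was at 77.7, 78.5 and 95.1 FPKM in WT and at 51.6, 23.1 and 26.0 FPKM in mutant pools. Clutches 4 and 7, with more of the longer form, held less of the shorter one, and its change missed the threshold (log2 fold change -1.26 ± 0.37, SE, adjusted p = 0.199, limma).

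At ppp2r2ab (chromosome 10, 18877351 to 18907666, plus strand), another B subunit gene of protein phosphatase 2A, the gained transcript of 10 exons and 3323 bases was at 0, 0.00592 and 0 FPKM in WT and 10.3, 6.98 and 6.66 FPKM in mutant pools. The named form with 1 exon more was at 1.91, 3.00 and 3.27 FPKM in WT and 3.79, 4.86 and 4.68 FPKM in mutant pools, higher in all of them. The main named transcript, a different form, was called lower. The named form with 1 exon more was thus higher in mutant pools, as the gained form was by the rule, and the main named form lower.

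At pdcd11 (chromosome 1, 49435043 to 49481173, plus strand), whose product acts in ribosomal RNA processing, the higher of 2 gained forms was listed at 0 in WT and was at 4.21, 5.11 and 5.72 FPKM in mutant pools. Its spliced form of 36 exons was at 6.49, 7.53 and 7.88 FPKM in WT and at 4.21, 2.2 and 2.41 FPKM in mutant pools. This gained form was level with the spliced one in clutch 3 (50% of the pair) and above it in clutches 4 and 7 (69.9% and 70.3%). The other gained form, also of 35 exons and 3 bases shorter, is not in that share. It was listed at 0 in WT and was at 0.449, 0.839 and 1.18 FPKM in mutant clutches 3, 4 and 7. At eml2, the gene of a microtubule-associated protein, the gained form was listed at 0 in WT and was at 5.54, 3.37 and 6.67 FPKM in mutant pools. Another unnamed form of 19 exons, from which the gained form differed in length by -693 bases, moved from 6.40, 6.72 and 5.49 FPKM to 1.57, 2.85 and 2.03 FPKM, so the 2 changed places.

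Other high members rested on unequal mutant pools. At ptena, the gene of a lipid phosphatase that opposes PI3-kinase signalling, the gained transcript (10 exons, 2801 bases) was listed at 0 in WT and was at 18.5, 3.22 and 3.88 FPKM in mutant pools. At fus, the gene of an RNA-binding protein, it was listed at 0 in WT and was at 3.70, 2.41 and 17.6 FPKM. The main named fus transcript was at 15.1 and 13.2 FPKM in mutant clutches 3 and 4 but at 0 in clutch 7, the pool with the high gained form. In each of these genes 1 pool, clutch 3 for ptena and clutch 7 for fus, made most of the mean.

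At zgc:86896 the gained transcript of 10 exons was listed at 0 in WT and was at 6.40, 20.0 and 9.71 FPKM in mutant pools, and the locus also carries the name wipi1. At surf4, the gene of a cargo receptor of the endoplasmic reticulum, it was at 0, 0.0292 and 0 FPKM in WT and at 7.35, 6.47 and 14.3 FPKM in mutant pools. A surf4 form only 2 bases longer was at 12.6, 10.8 and 11.2 FPKM in WT and at 8.07, 5.03 and 0 FPKM in mutant pools. Clutch 7, with the highest level of the gained surf4 form, listed the other form at 0.

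A gained transcript of 9 exons and 1488 bases (chromosome 17, 49983155 to 50010169, minus strand) joined 2 genes, cox7a2a, of a cytochrome c oxidase subunit, and tmem30aa, of a flippase subunit. It was listed at 0 in WT and was at 9.86, 6.85 and 13.7 FPKM in mutant pools, with a second form 1 base shorter at 5.67, 8.08 and 0.569 FPKM. A further form of 9 exons, 1483 bases long, was present in all 6 pools, at 1.76 to 3.79 FPKM in WT and 0.996 to 3.05 FPKM in mutant pools. The named tmem30aa transcript was at 4.98, 4.82 and 6.02 FPKM in WT and at 1.12, 1.46 and 1.47 FPKM in mutant pools. Joined forms were therefore present in both genotypes, and the named tmem30aa form was lower in every mutant pool.

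**Figure D4:**
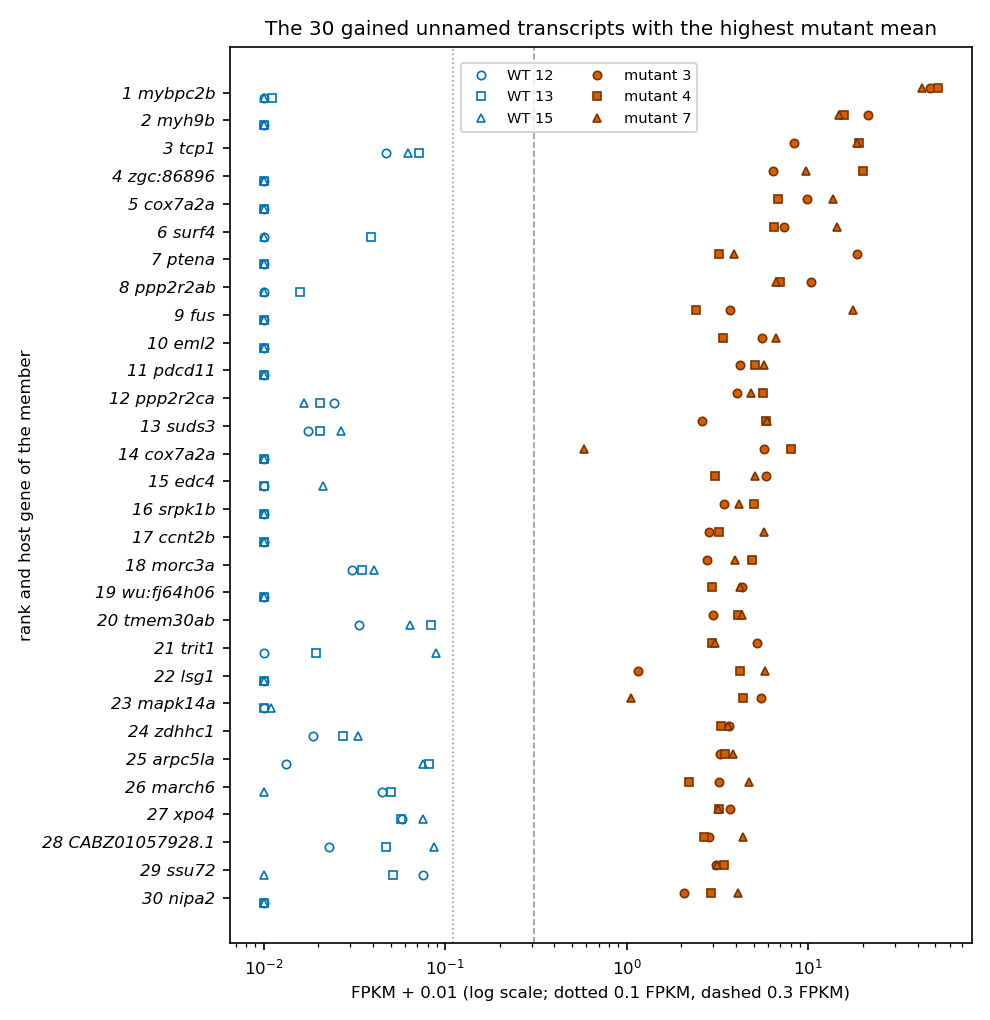
FPKM plus 0.01 on a log scale (x axis) of the 30 gained transcripts with the highest mutant mean, by rank and host gene (y axis). Open blue symbols are WT pools and filled orange symbols mutant pools, with marker shapes for the clutches as in the legend. By the rule all WT points lie left of the dotted line at 0.1 FPKM and all mutant points right of the dashed line at 0.3 FPKM, and the mutant points of ptena, fus and the second cox7a2a form are spread the most widely.

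By share of the locus, gained transcripts took a median of 24.2% in mutant pools (0.509% to 100%). The share was over 50% in 21, between 10% and 50% in 69 and under 10% in 25. Its median was 42.1% in transcripts with 1 exon fewer and, after different ends were allowed for, added length against a named form. It was lower in those with the same exon number (15.2%), fewer exons (25.2%) or more exons (21.7%). The first of these classes set no limit on how far apart the ends lay, and genomic bases between ends were counted as exon. Added length is therefore not shown for each of its transcripts. A host on the study's intron list was found for 21 of 24, 24 of 37, 14 of 28 and 10 of 26 gained transcripts of these classes, an order that differs from that of the shares.

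The highest shares came from loci of uncharacterised genes with little WT signal. The gained transcripts of CR925709.2 (chromosome 23) and BX470240.1 (chromosome 4) took 100% of their loci by the median of mutant pools, and that of BX323575.1 (chromosome 18) took 97.1%. The CR925709.2 transcript was at 0, 0.0126 and 0.0151 FPKM in WT and 0.608, 1.29 and 1.54 FPKM in mutant pools. The BX470240.1 transcript was at 0.0164, 0 and 0.0412 FPKM in WT and 0.590, 0.746 and 2.45 FPKM in mutant pools. Both were 251 bases longer than the main named form of their locus with 2 exons fewer, and whether reads could be shared between these loci was not examined. The BX323575.1 transcript was at 0.0396, 0 and 0 FPKM in WT and 3.02, 2.01 and 3.49 FPKM in mutant pools.

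After mybpc2b, zdhhc1, ppp2r2ca and myh9b, the other hosts in the top 10 by share were wu:fj64h06 (75.9%), ipo4 (71.9%) and sgip1a (71.4%). At wu:fj64h06 the gained transcript of 16 exons was listed at 0 in WT and was at 4.29, 2.93 and 4.22 FPKM in mutant pools. At ipo4, the gene of an importin that carries proteins into the nucleus, it was listed at 0 in WT and was at 2.04, 1.61 and 1.07 FPKM. The main named ipo4 transcript was at 7.33, 7.39 and 9.26 FPKM in WT and at 0.358, 1.45 and 0 FPKM in mutant pools. The high ipo4 share thus came with a lower locus, while the wu:fj64h06 locus was higher. At sgip1a the gained transcript was at 0.0207 to 0.0499 FPKM in WT and at 0.608, 1.12 and 1.27 FPKM in mutant pools.

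Forms with the exon number and both ends of a named transcript differed from it in spliced length. Which exons differed cannot be told without exon coordinates. The genes named here were picked after their values were seen. The gained form was 33 bases longer at srpk1a, an SR protein kinase gene, 66 and 14 bases longer at cul2, the gene of a cullin scaffold, and 91 and 3364 bases longer at ptenb. At srpk1a the form was listed at 0 in WT and was at 1.19, 2.11 and 3.57 FPKM in mutant pools. At myo1eb, the gene of an unconventional myosin, the form was 96 bases shorter.

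From the list of minor spliceosome proteins, rnpc3, the gene of a protein that binds the U12 snRNA, held 1 gained transcript. With 16 exons and the same spliced length as the main named form, it was listed at 0 in WT and was at 1.02, 0.418 and 0.873 FPKM in mutant pools. The gene families known for minor introns were taken by the start of the gene symbol. Of these, mapk14a, the gene of a p38 kinase, held 2 gained transcripts, at 5.46, 4.35 and 1.05 FPKM and at 1.09, 2.25 and 0.655 FPKM in mutant pools. No host was on the list of nonsense-mediated decay and exon junction proteins. Of all 11723 unnamed transcripts, 9 (0.0768%) lay at loci of the minor spliceosome list, 66 (0.563%) at those of the families and 5 (0.0427%) at those of the decay list. The lowest pool was clutch 4 for the gained rnpc3 form and clutch 7 for both gained mapk14a forms. Each mapk14a form had another unnamed form 8 bases away in ends and length together. These were at 2.43, 0 and 3.98 FPKM and at 1.05, 0 and 1.71 FPKM in mutant clutches 3, 4 and 7. The ends of the rnpc3 form differed from those of the main named form by 13 bases together. The lowest pool therefore depends on how reads were divided between such forms.

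As loci, few members of the lists were called. Of 14 minor spliceosome loci tested, 1 was called, and it was higher (ccdc84, log2 fold change 1.90 ± 0.12, SE, adjusted p = 0.00146, limma), while 5 had an unadjusted p below 0.05, with a median of 0.10. Of 13 loci of nonsense-mediated decay and the exon junction, 0 were called by limma and 1 had an unadjusted p below 0.05, with a median of -0.11. Of 88 tested loci taken by symbol start for the minor-intron families, 2 were called higher (araf 1.01 and mapk8a 1.43) and 1 lower (trappc1 -1.03), while 31 had an unadjusted p below 0.05, with a median of 0.03. The 88 also hold loci such as mapk8ip2 and slc9a3r1a, whose names only begin like those of a family. The median over all 25349 loci was 0.02, and 4.07% of them were called. The share of all loci with an unadjusted p below 0.05 was not counted, so nothing is read from those numbers.

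The main named transcripts of the hosts were then compared between genotypes in a limma fit over all transcripts. A call needed an adjusted p (Benjamini-Hochberg) below 0.05 with a log2 fold change of 1 or more in either direction, and p-values measure the spread between these pools. Of 100 hosts, 89 had a main named transcript above the filter, and 8 of these were called, 7 lower and 1 higher. Over all 26880 named transcripts tested, 1.07% were called, 0.766% lower and 0.301% higher. Since gained and named forms of a locus share reads, pools and the contrast that chose them, nothing is read from the difference.

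The median log2 fold change was -0.44 over the 89 and -0.06 over all named transcripts. Below 0 were 63 of the 89, against 14673 of all 26880 named transcripts tested. All mutant pools lay below all WT pools in 40 and above in 7 of the 89, against 16.2% and 10.2% of all named transcripts. At the 17 loci with a size match, the median was -0.97, with 15 below 0 and 1 called lower. The gained and named forms share reads there too, so nothing is read from these numbers. Without scaling between pools the median of the 89 was -0.57, and the median of all transcripts tested was -0.12 in place of 0.00.

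The 7 named transcripts called lower were those of fat1a (-5.41 ± 0.22, SE), trit1 (-3.01 ± 0.41), nr2c2ap (-2.84 ± 0.40), arl2 (-2.12 ± 0.26), ppp2r2ab (-1.90 ± 0.16), hsbp1b (-1.76 ± 0.25) and vbp1 (-1.52 ± 0.14), on the log2 scale. Among them, arl2 encodes a small GTPase, vbp1 a prefoldin subunit and trit1 an enzyme that modifies transfer RNA. At nr2c2ap and vbp1 the transcript most like the gained one in exon number, length and ends bore another gene name, borcs8 and zgc:162171. These loci thus hold several gene names. For fat1a, with all mutant pools at 0, the value depends on the added 0.1 and is no fold. Adjusted p ran from 0.00196 for fat1a to 0.0429 for hsbp1b (limma, Benjamini-Hochberg). The call of fat1a was kept in each of the 6 fits without 1 pool, that of ppp2r2ab in 4, that of vbp1 in 2 and those of arl2, hsbp1b, nr2c2ap and trit1 in 1 each. Without WT clutch 12 or WT clutch 13 only 2 host transcripts were called, and without WT clutch 15 or mutant clutch 7 only 4.

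The other large falls missed the threshold, at -4.15 ± 0.97 (SE) for ipo4, -3.75 ± 0.63 for FRMD5 and -3.11 ± 0.72 for impact. The named FRMD5 transcript was at 2.48, 1.96 and 2.30 FPKM in WT and at 0, 0.335 and 0 FPKM in mutant pools, and its gained form was listed at 0 in WT and was at 2.22, 3.94 and 0.992 FPKM. The groups did not overlap for the named FRMD5 form, and for the gained one this follows from the rule. For impact, a regulator of translation, the gained form was listed at 0 in WT and was at 2.87, 1.92 and 0.657 FPKM in mutant pools.

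Rises of the named transcript were fewer. The call was BX005336.2 (4.32 ± 0.31, SE, adjusted p = 0.00741, limma), a single-exon transcript of 165 bases at 0.0421, 0.0368 and 0.0535 FPKM in WT and 2.44, 1.99 and 3.79 FPKM in mutant pools. It was kept in each of the 6 fits without 1 pool. The next 4, edc4 (2.72 ± 0.78), cep170aa (2.66 ± 0.54), srpk3 (1.17 ± 0.20) and zdhhc5a (1.07 ± 0.30), missed the threshold. At edc4, the gene of a scaffold of mRNA decapping, the gained form of 18 exons (main named form, 29 exons) was at 0, 0 and 0.0111 FPKM in WT and at 5.85, 3.04 and 5.06 FPKM in mutant pools. The named edc4 form was higher in all mutant pools, as the gained one was by the rule.

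Whole loci, taken as the sum of all their transcripts, had a median on the other side of 0 from the named transcripts. Of 100 host loci tested, 26 were called by limma, 24 higher and 2 lower, against 4.07% of all loci (1.79% higher and 2.28% lower). The sum includes the gained transcript itself, so nothing is read from this share. The median log2 fold change was 0.45, all mutant pools lay above all WT pools at 60 loci and below at 12, and the background shares were 15.9% and 16.9%. When only named transcripts were summed, 16 of 90 loci were called, 4 higher and 12 lower, and the median was -0.36. Of all loci summed in that way, 2.77% were called (0.871% higher and 1.9% lower). Named forms share reads with the gained forms, which the rule chose as high in mutant pools, so nothing is read from this difference either.

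The largest rises among the called loci were BX005336.2 (4.47), BX323575.1 (4.34), CR925709.2 (3.5), BX470240.1 (3.43) and edc4 (2.68). In mutant pools the gained transcript made up 100% of the CR925709.2 and BX470240.1 loci and 97.1% of the BX323575.1 locus by the median, so these values restate the rule. Other loci called higher included zdhhc1 (1.89 ± 0.13, SE), srpk3 (1.83 ± 0.19), ppp2r2ca (1.77 ± 0.15), wu:fj64h06 (1.74 ± 0.18), morc3a (1.52 ± 0.13) and mysm1 (1.12 ± 0.13). The 2 called lower were ipo4 (-1.75 ± 0.29) and polr2k (-1.46 ± 0.18), a subunit shared by the RNA polymerases. The polr2k locus also holds spag1a, whose named transcript was the one most like the gained transcript, so its sum is not of polr2k alone. Of the 26, 13 were called in each of the 6 fits without 1 pool, all of them higher, while ipo4 was kept in 3 fits and polr2k in 5. As these sums hold the gained transcripts, a call kept in such fits is no check beyond the rule. Without WT clutch 12, 14 host loci were called, and without WT clutch 13, 16.

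Both changes combined in 41 of the 89 hosts, whose named transcript was below 0 and whose locus was above 0 on the log2 scale. In 22 hosts both were below 0, in 26 both above 0 and in 0 was the named transcript above and the locus below. The locus sum holds the gained transcript, which by the rule was higher in mutant pools, so nothing is read from this split. At trit1 both were called, with the named transcript at -3.01 and the locus at 1.19 ± 0.15 (SE, adjusted p = 0.00986, limma). Its 2 gained forms were at 5.20, 2.95 and 3.05 FPKM and at 1.5, 1.79 and 3.58 FPKM in mutant pools, and the locus call was kept in 5 of the 6 fits without 1 pool.

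**Figure D5:**
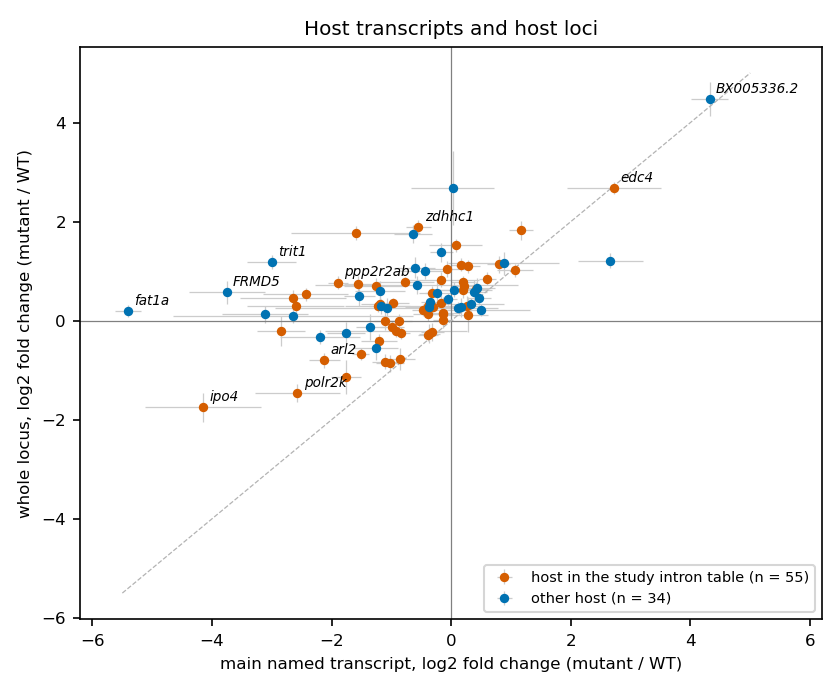
Log2 fold change (mutant over WT) of the main named transcript (x axis) against that of the whole locus (y axis) for the 89 hosts with a tested named transcript, with standard errors in grey and the dashed line at equal change. Orange points are the 55 hosts on the study's intron list and blue points the other 34, and 41 points lie left of 0 and above 0. The locus sum includes the gained transcript.

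By intron list, hosts on it had a median change of the named transcript of -0.47 (55 tested, 5 called lower) and the other hosts of -0.41 (34 tested, 2 called lower and 1 higher). At the locus level 12 of 57 and 12 of 43 were called higher, and the difference between these shares was not tested. By structure, the median change of the named transcript was -0.86 for hosts of the class with 1 exon fewer, whose added length was computed with no limit on the ends. It was -0.38 with the same exon number, -0.17 with fewer and -0.58 with more exons.

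By mean WT level the lost transcripts were led by rps4x, a ribosomal protein gene (1.51, 434 and 477 FPKM in WT clutches 12, 13 and 15), apoda.2, an apolipoprotein D gene (66.8, 40.9 and 9.53 FPKM), krt91, a keratin gene (21.8, 38.8 and 5.12 FPKM), cel.1, a carboxyl ester lipase gene (13.7, 4.10 and 5.99 FPKM), and smyhc3, a slow myosin gene (4.82, 18.3 and 0.321 FPKM). These 5 were listed at 0 in all mutant pools, except cel.1 at 0.0403 FPKM in clutch 4. The gene given is that of the main named transcript of the locus. The krt91 locus held 5 gene names, and its lost form did not overlap the main named krt91 transcript. The smyhc3 locus held 6 gene names. Their WT pools differed among themselves by wide factors, and rps4x was carried by 2 of 3 pools. The main named rps4x form was at 1415, 1.15 and 8.99 FPKM in WT and at 41.2, 1261 and 1271 FPKM in mutant pools. The whole rps4x locus was at 1432, 1295 and 1601 FPKM in WT and at 1481, 1266 and 1274 FPKM in mutant pools. Forms of this locus thus differed between pools of 1 genotype far more than their sum did. In mammals the product of cel.1 is an exocrine pancreas enzyme, and the pancreas markers were lower in every mutant pool, as given above.

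Loci with several names held 21 lost transcripts (40.4%) against 19 gained ones (16.5%) and 20.2% of all unnamed transcripts. The lost transcripts had more exons than the main named form in 23 (44.2%) and reached beyond it at an end in 39 (75.0%), shares near those of all unnamed transcripts (49.3% and 70.9%). Of their main named transcripts 37 were tested and 3 were called, each lower, with a median of -0.12, and of their 46 loci 1 was called higher and 6 lower, with a median of -0.17. Over all named transcripts tested 0.766% were called lower, and over all loci 1.79% were called higher and 2.28% lower. The locus sums include the lost transcripts, which share reads with the named forms, so nothing is read from these shares.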

How the data were processed

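RNA-Seq reads were filtered and aligned to GRCz11 by the authors with HISAT2 2.2.1.0, and transcripts were assembled and estimated with StringTie 2.0.3 on Ensembl annotation, per the labels and the study's methods. The library was made from total RNA, so RNA not yet spliced is included. The authors deposited FPKM as the estimate for each transcript, and coverage, also deposited, is its mean read depth. All 6 tables list the same transcripts, which were built from these reads, and the estimation divides reads on shared exons between forms. Coverage was used here for the bases covered in each pool and as an alternative to FPKM. Numbers of reads were not used, so the number of reads behind each FPKM was not derived. No interval is given, and a value of 0 is described as listed at 0.

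Gained and lost transcripts were found on FPKM as deposited. For each locus (one assembled gene identifier) the main named transcript was the named one with the highest mean WT FPKM. Structure classes used exon number, spliced length and ends. Inserted length is the difference in spliced length after different ends were allowed for. All genomic bases between different ends were counted as exon, so it is less certain the further apart the ends lie. Fold changes were fitted across all features with limma 3.58.1 in R 4.3.3 on log2(FPKM divided by a median-of-ratios factor, plus 0.1), two-sided, with a mean trend and Benjamini-Hochberg adjustment, for features with a mean of at least 0.1 FPKM. They are on that scale and understate changes of low transcripts. Locus sums add FPKM of transcripts of unequal length. The fit was tested on simulated data. Other steps used Python 3.11.15, pandas 2.3.3 and numpy 2.4.6, and figures matplotlib 3.10.9.

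The members and the gene lists were chosen with earlier results of these data known. Transcripts named are the 12 with the highest mutant mean, the 10 with the highest share of the locus, those with an insert and identical ends, those of listed genes, the 5 highest lost ones, the hosts with the 5 largest rises and falls of the main named transcript, and 3 on either side of the lower limit. Hosts of size-matched inserts, forms with the same ends and exon number, loci called in the fits and znf207b are named outside this rule, after their values were seen. Alternatives were other limits, scaled FPKM, coverage, other pseudocounts and filters, no scaling, robust fitting, other sums and leaving out each pool.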

Additional observations from a re-analysis of the deposited data

How the results depend on the processing

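Of the gained and lost counts (115 and 52), scaled FPKM, coverage, an upper limit of 0.05 FPKM and required overlap kept both within 1.5 times. An upper limit of 0 gave 65 gained and 31 lost, a lower limit of 0.5 FPKM 89 and 31, and a lower limit of 1 FPKM 55 and 13. Leaving out 1 pool gave 158 to 185 gained and 96 to 132 lost, because a rule over fewer pools is easier to meet. Host main named transcripts called (8) were 5 with no filter on low values and 2 to 10 with 1 pool left out. Host loci called (26) were 15 with a pseudocount of 1, 16 with named transcripts summed (4 higher and 12 lower) and 14 to 25 with 1 pool left out. The cause of these moves in the fits was not tested. The other settings kept both within 1.5 times. As alternatives added after the data were seen, the distance allowed between the ends of pairs with 1 exon fewer was set to 0 bases, which left 5 of 15, and to 1000 bases, which kept the count within 1.5 times. No paired analysis was possible because no clutch number is shared by the genotypes. Low levels limit the exon structure of forms near 0.3 FPKM, and forms a few bases apart are limited by how reads were divided.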
